A study of Mus musculus with 8 samples.

Results

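The comparison described here set immortalized mouse pancreatic stellate cells (PSCs) that had received medium conditioned by Brca2-silenced cancer organoids (shBrca2-CM, 3 libraries) against the same cells in control medium (2 libraries). Genes entered it when their counts summed to at least 10 over these 5 libraries, which kept 12049 of the 12160 genes measured and left out 111. PSCs were grown in Matrigel in growth medium for 4 days and then for 4 days in the test medium. The labels state 20000 cells seeded per culture, whereas the study's methods for 3D culture give a higher number. The organoids were KPC organoids, mouse pancreatic cancer cells grown in 3D, carrying a lentiviral short hairpin RNA against Brca2. A further group, PSCs with medium of KPC organoids carrying a control hairpin (shControl-CM, 3 libraries), is used only to test whether a described change differed between the conditioned media. All 3 groups share the same PSC line, which is a single immortalized line and no primary culture. The control is titled DMEM and is called growth medium in the study's results, whereas its recorded treatment is conditioned medium of the PSCs' own. The name control medium is used below because the sources differ. Per the study's methods, organoid medium was collected in DMEM with less serum than the growth medium holds, so serum and organoid factors cannot be told apart in a comparison with growth medium.

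Pancreatic stellate cells store vitamin A at rest and turn into matrix-producing cells after injury, and in pancreatic cancer they are a source of cancer-associated fibroblasts. Such fibroblasts are commonly divided into a contractile, matrix-producing state driven by TGF-beta and stiff surroundings, and an inflammatory state driven by IL-1, NF-kB and STAT3 that secretes cytokines and acute phase proteins. BRCA2 is a DNA repair protein, and the PSCs themselves were not silenced for it here.

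Libraries of mRNA 3′ ends were counted per gene. Totals were 655996 to 1095534 counts with shBrca2-CM, but 4623846 and 5476988 counts with control medium. Because the control libraries were deeper, 3 counts, taken here as the floor of detection, stood for 2.66 to 4.34 CPM (counts per 1000000, TMM-normalized over all 8 libraries) with shBrca2-CM and for 0.521 and 0.645 CPM with control medium. The floor covers counting error only. Of the genes tested, 1635 were at or under the floor in all 3 shBrca2-CM libraries and not in control medium, while 39 showed the reverse. For these a fold is given as a bound, and a low level with shBrca2-CM may be undetected rather than absent. All 15 fibroblast and stellate cell markers listed were measured, with summed levels of 5108 to 5367 CPM with shBrca2-CM and of 7010 and 7943 CPM with control medium. The markers did not move one way, their median log2 fold change being 0.29. By the rule for calls given below, 6 were higher with shBrca2-CM (Pdgfra, Thy1, Dcn, Fap, Pdpn and Des). Lower were 5 (Col1a1, Col1a2, Col3a1, Vim and Twist1). Of 15 epithelial markers, which organoid cells would carry, 4 were measured (Krt18, Krt19, Muc1 and Sox9), and Epcam, Cdh1 and Krt8 were not analysed here. Their summed level was 76.7 to 125 CPM with shBrca2-CM and 56.1 and 51.2 CPM with control medium; Krt18, Muc1 and Sox9 were higher and Krt19 lower. Leukocyte markers (4 of 10 measured) summed to 13.0 to 29.3 CPM against 12.2 and 10.7 CPM, and endothelial markers (3 of 8) to 5.79 to 11.5 CPM against 9.56 and 8.17 CPM. The part of these markers in the results was not tested. In bulk libraries such as these, fewer cells of a kind and less RNA per cell cannot be told apart.

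A gene was called when its edgeR quasi-likelihood test gave a Benjamini-Hochberg adjusted p under 0.1, its log2 fold change was over 0.5 in size and its mean normalized count was over 5. By this rule 4555 genes, or 37.8% of those tested, were called, 2247 higher with shBrca2-CM (18.6%) and 2308 lower (19.2%). In 6917 genes (57.4%) the 3 values of one medium and the 2 of the other did not overlap. The median log2 fold change over all genes was -0.05, and the median size among called genes was 1.01. Increases over 3 on the log2 scale were seen in 73 called genes, and decreases of that size in 57. With 3 libraries against 2, whose culture domes the study describes as independent, p-values measure the spread between these 5 libraries.

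**Figure D1:**
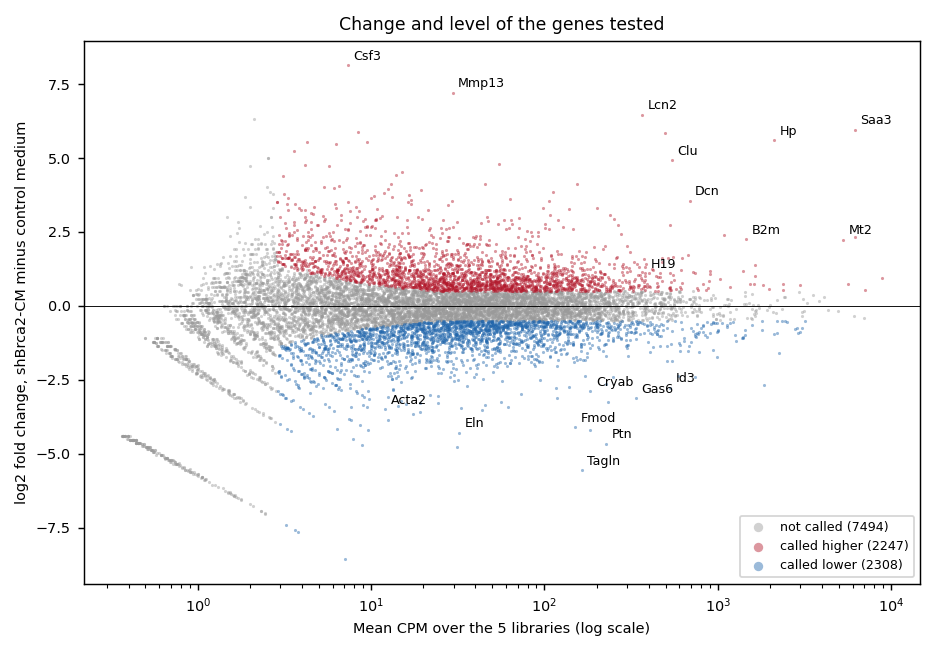
Log2 fold change (shBrca2-CM minus control medium, vertical axis) against mean CPM over the 5 libraries (log scale, horizontal axis), with 1 point per gene tested. Red and blue points are the 2247 genes called higher and the 2308 called lower, grey points were not called, and the slanted lines of points at the lower left are genes with few or no counts in the shallower shBrca2-CM libraries.

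A call required a mean normalized count over 5, which no gene under 1 CPM and 7.60% of those between 1 and 3 CPM reached, so that few genes under 3 CPM could be called. The share called was 35.9% between 3 and 10 CPM and 42.6% to 48.2% in each class above. When all 5 libraries were thinned to 655996 counts, the smallest total, 3326 genes were called. The same count limit was then reached by 30.6% of genes between 3 and 10 CPM, of which class 7.47% were called, so that a call lost at equal depth can rest on that limit alone. The share was 33.0% between 10 and 30 CPM, where nearly all genes reached the limit, and above 100 CPM it was 43.4% and 42.8%, close to the 42.6% and 43.3% at full depth. The wide response was thus seen at equal depth in abundant genes.

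**Figure D2:**
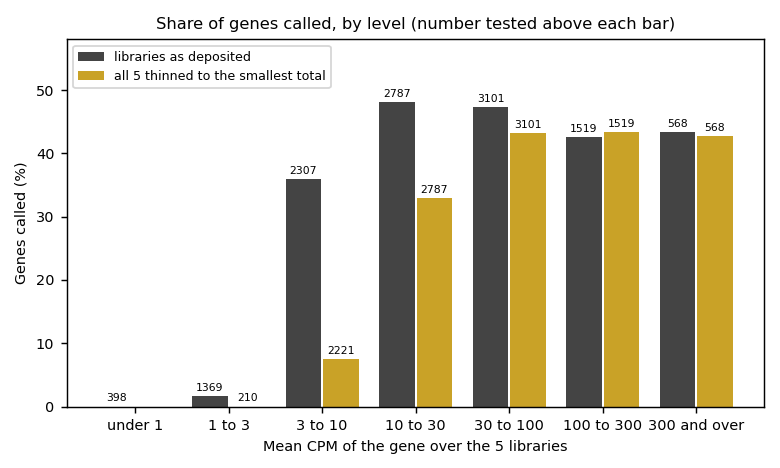
Percent of tested genes called (vertical axis) in classes of mean CPM (horizontal axis), with the libraries as deposited (dark bars) and after thinning all 5 to the smallest total (yellow bars), the number of genes above each bar. Both series are near 43% above 100 CPM, and the bars of the classes under 3 CPM, and after thinning under 10 CPM, are limited by the mean count of over 5 that a call required.

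Genes of secreted defence proteins were among those with the largest increases. Among genes with over 3 counts in every library, the largest rise was that of Lcn2, lipocalin-2, which binds bacterial iron carriers. It was at 502, 579.9 and 744 CPM with shBrca2-CM and 7.13 and 6.66 CPM with control medium (log2 fold change 6.46 ± 0.21 (SE), edgeR adjusted p = 1.03e-34). Saa3, a serum amyloid A protein made outside the liver, was at 9594, 9080.4 and 11806 CPM with shBrca2-CM and 172 and 158 CPM with control medium (log2 fold change 5.95 ± 0.17 (SE), edgeR adjusted p = 5.89e-38). With this it moved from rank 1224 among all genes in control medium to rank 2 with shBrca2-CM, behind the ferritin heavy chain gene Fth1. Hp, haptoglobin, which binds free haemoglobin, was at 3456, 2799 and 4140.1 CPM with shBrca2-CM and 83.6 and 58.5 CPM with control medium (log2 fold change 5.61 ± 0.19 (SE), edgeR adjusted p = 1.03e-34). In all 3 genes each shBrca2-CM library was above 30 times the higher control library.

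Other large increases were of varied function. Mmp3, the matrix protease stromelysin-1, was at 699, 754 and 985 CPM with shBrca2-CM and 18.6 and 8.81 CPM with control medium (log2 fold change 5.86 ± 0.21 (SE), edgeR adjusted p = 1.13e-32). Its control libraries were not close, and without control medium replicate 1 the log2 fold change was 6.52. Clu, clusterin, a secreted chaperone that the study follows as a fibroblast marker, was at 852, 813 and 1010.2 CPM with shBrca2-CM and 29 and 29.7 CPM with control medium (log2 fold change 4.93 ± 0.18 (SE), edgeR adjusted p = 6e-33). The groups stood far apart and the libraries within each were close. The agouti gene a, which encodes a secreted antagonist of melanocortin receptors, was at 85.4, 72.2 and 110.1 CPM with shBrca2-CM and 2.95 and 3.44 CPM with control medium (log2 fold change 4.81). S100a11, a calcium-binding protein, was at 253, 265 and 221 CPM with shBrca2-CM and 14.1 and 14.2 CPM with control medium (log2 fold change 4.12), and Gda, guanine deaminase, at 78.1, 77.2 and 63.9 CPM with shBrca2-CM and 4 and 4.3 CPM with control medium (log2 fold change 4.12). Mgst2, a microsomal glutathione transferase, was at 21.7, 16.2 and 22.2 CPM with shBrca2-CM and 1.39 and 1.07 CPM with control medium (log2 fold change 3.97, or 6.72 at equal depth). Uqcrb, a subunit of respiratory complex III, was also among the 10 largest (33.3, 22.4 and 12.4 CPM against 0.695 and 1.29 CPM). Uqcrb has like copies elsewhere in the genome, so its value depends on how reads of such copies were counted and is uncertain.

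In 20 genes called higher both control libraries were at or under 3 counts, so that only a lower bound holds, and the 5 most abundant with shBrca2-CM are given. Mmp13, collagenase-3, was at least 76.2-fold higher (43.4, 53.5 and 50.6 CPM against 0.348 and 0.215 CPM), and Csf3, the granulocyte colony stimulating factor, with 0 counts in both control libraries, at least 19.1-fold higher. The Csf3 bound rests in part on 1 library, since the shBrca2-CM values were 7.23, 7.47 and 22.2 CPM against 0 and 0 CPM. Saa1 was at least 21.5-fold higher (14.5, 11.2 and 16 CPM against 0.348 and 0 CPM), Fhl3, a LIM-domain protein, at least 24.1-fold higher (14.5, 16.2 and 16 CPM against 0.348 and 0.215 CPM), and Tslp, a cytokine that acts on dendritic cells, at least 16.2-fold higher (11.6, 9.96 and 9.76 CPM against 0.521 and 0.645 CPM). That these 5 genes were unseen or nearly so in control medium follows from the way they were picked.

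Among genes with over 3 counts in every library, the largest fall was that of Tagln. Tagln, transgelin, an actin-binding protein of smooth muscle, was at 8.68, 9.96 and 7.1 CPM with shBrca2-CM and 381 and 415 CPM with control medium (log2 fold change -5.55 ± 0.22 (SE), edgeR adjusted p = 2.28e-30). Ptn, the heparin-binding growth factor pleiotrophin, was at 23.1, 23.6 and 17.8 CPM with shBrca2-CM and 667 and 403 CPM with control medium (log2 fold change -4.66). Sfrp2, a secreted Wnt modulator, was at 11.6, 31.1 and 24.9 CPM with shBrca2-CM and 465 and 385 CPM with control medium (log2 fold change -4.20), and Fmod, the collagen-binding proteoglycan fibromodulin, at 10.1, 26.1 and 22.2 CPM with shBrca2-CM and 347 and 347 CPM with control medium (log2 fold change -4.10). In each of these 4 genes the lowest control library was over 10 times the highest shBrca2-CM library.

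Among the next decreases were Gas6, the ligand of the TAM receptor kinases, at 63.7, 88.4 and 92.3 CPM with shBrca2-CM and 826 and 610.3 CPM with control medium (log2 fold change -3.12 ± 0.16 (SE), edgeR adjusted p = 1.82e-24), and Ccn3, a matricellular protein, at 46.3, 77.2 and 38.2 CPM with shBrca2-CM and 515 and 485 CPM with control medium (log2 fold change -3.24). Sulf2, which removes sulfate groups from heparan sulfate, was at 11.6, 21.2 and 7.1 CPM with shBrca2-CM and 118 and 125 CPM with control medium (log2 fold change -3.25). Cd24a, a surface glycoprotein, was at 8.68, 13.7 and 7.1 CPM against 103 and 94.6 CPM, Nrep at 8.68, 8.71 and 3.55 CPM against 82.4 and 61.3 CPM and Lurap1l at 11.6, 14.9 and 11.5 CPM against 119.6 and 151 CPM, with no overlap between the groups. In 152 further genes called lower the 3 shBrca2-CM libraries were all at or under 3 counts. The 5 most abundant in control medium were Col15a1, a basement membrane collagen (at least 6.49-fold lower, 2.89, 2.49 and 0.888 CPM against 28.2 and 28.2 CPM), Ngef, a guanine nucleotide exchange factor (at least 6.09-fold lower), Acta2, alpha smooth muscle actin (at least 6.05-fold lower), Clec3b, tetranectin (at least 5.09-fold lower), and Mrvi1, an IP3 receptor regulator of smooth muscle (at least 4.82-fold lower), whose call was lost at equal depth on the mean count alone (log2 fold change -3.80 there). The bounds are small because the shallow libraries cannot show a level much under 4 CPM.

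**Figure D3:**
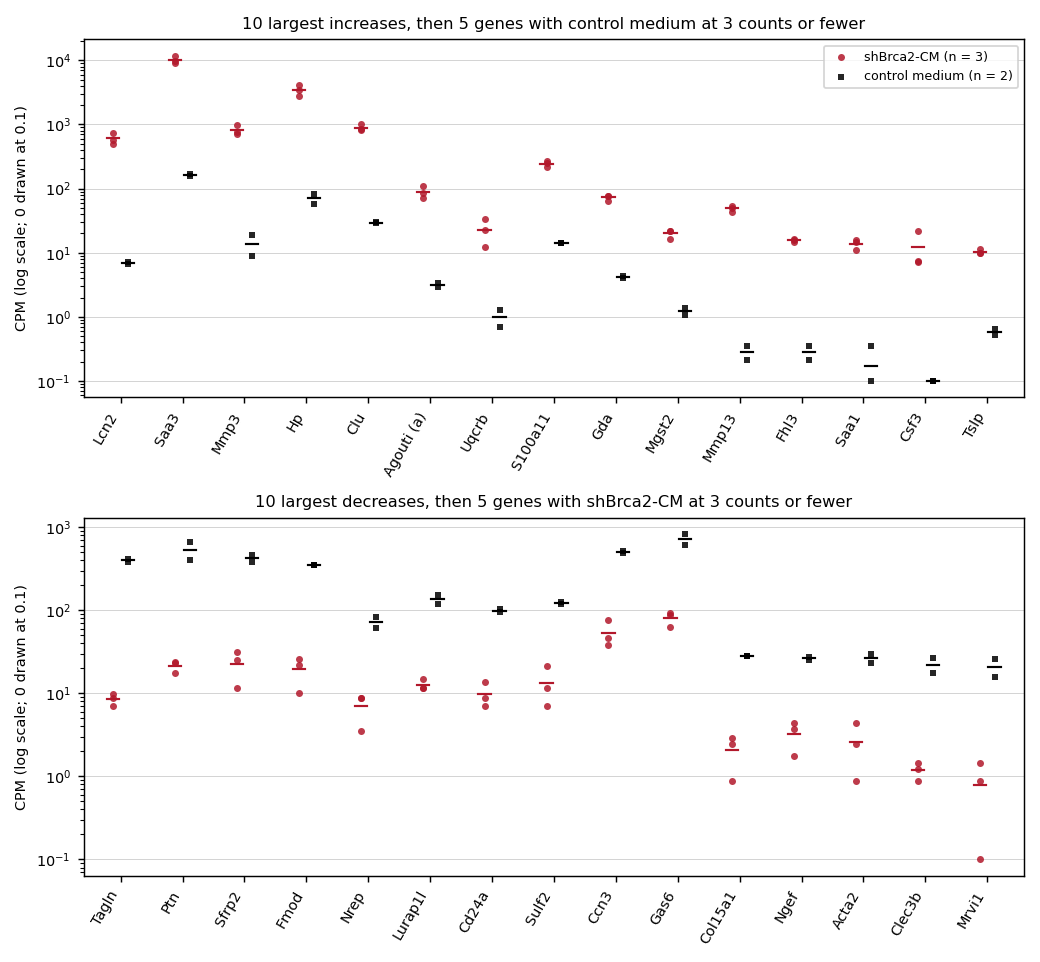
CPM (log scale, with 0 drawn at 0.1) of the genes with the largest changes, with 1 point per library and a bar at the group mean, red circles for shBrca2-CM and black squares for control medium. The top panel holds increases, such as Saa3 at 9080.4 to 11806 CPM and Tslp at 9.76 to 11.6 CPM, and the bottom panel decreases. The 30 genes were picked for large called changes, so the gap between their groups is no separate result. Of all genes tested, 57.4% had groups that did not overlap.

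Promoter windows of a few of these genes are shown as examples of short motifs that some lists held. The windows run from 250 bases before to 50 after the gene start (RefSeq, GRCm38.p6, the same assembly as the mm10 build in the submitters' notes), and 9556 of the genes tested had at least 1 window. Capitals mark the C/EBP letters TTGCNNAA on either strand in the first pair, the AP-1 letters TGANTCA in Mmp13, the TEAD letters GGAATG in the next 3, the CArG box bound by serum response factor in Myl9 and in Ifit1 a pair of GAAA repeats separated by 2 bases, the core of an interferon response element. Both strands were searched and motifs may overlap each other. Only the motif named is capitalised in each gene. Other letters searched, which are named below, were also present and left in lower case. These were heat shock and interferon letters in Saa3, interferon letters in Mmp13, heat shock letters in Ccn1 and kappa-B letters in Myl9. The positions are chr2:32387690-32387989, minus strand for Lcn2, chr7:46715627-46715926, minus strand for Saa3, chr9:7272264-7272563, plus strand for Mmp13, chr19:36119795-36120094, minus strand for Ankrd1, chr3:145649936-145650235, minus strand for Ccn1, chr19:34255324-34255623, minus strand for Acta2, chr2:156775214-156775513, plus strand for Myl9 and chr19:34640639-34640938, plus strand for Ifit1. Each is written 5′ to 3′ on the strand of its gene.
Lcn2: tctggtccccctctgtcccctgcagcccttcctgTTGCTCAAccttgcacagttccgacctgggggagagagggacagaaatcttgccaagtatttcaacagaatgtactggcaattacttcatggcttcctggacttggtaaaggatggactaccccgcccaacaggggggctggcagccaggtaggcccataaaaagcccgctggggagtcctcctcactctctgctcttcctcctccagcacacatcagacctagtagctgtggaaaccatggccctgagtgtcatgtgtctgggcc
Saa3: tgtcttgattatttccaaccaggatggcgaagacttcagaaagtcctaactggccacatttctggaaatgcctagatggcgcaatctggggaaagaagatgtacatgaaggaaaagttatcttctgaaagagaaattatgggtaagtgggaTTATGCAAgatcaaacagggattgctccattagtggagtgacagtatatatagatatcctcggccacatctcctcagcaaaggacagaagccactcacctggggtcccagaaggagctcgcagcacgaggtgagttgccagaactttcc
Mmp13: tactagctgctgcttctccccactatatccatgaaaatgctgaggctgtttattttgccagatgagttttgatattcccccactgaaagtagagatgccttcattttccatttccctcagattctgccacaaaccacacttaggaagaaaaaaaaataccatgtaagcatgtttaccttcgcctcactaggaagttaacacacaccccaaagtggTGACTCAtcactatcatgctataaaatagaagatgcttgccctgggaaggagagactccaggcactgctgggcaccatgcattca
Ankrd1: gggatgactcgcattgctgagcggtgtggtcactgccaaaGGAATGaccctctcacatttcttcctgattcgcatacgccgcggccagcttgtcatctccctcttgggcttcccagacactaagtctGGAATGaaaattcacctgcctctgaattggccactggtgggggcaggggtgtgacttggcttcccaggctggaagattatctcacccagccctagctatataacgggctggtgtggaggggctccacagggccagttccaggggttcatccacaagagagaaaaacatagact
Ccn1: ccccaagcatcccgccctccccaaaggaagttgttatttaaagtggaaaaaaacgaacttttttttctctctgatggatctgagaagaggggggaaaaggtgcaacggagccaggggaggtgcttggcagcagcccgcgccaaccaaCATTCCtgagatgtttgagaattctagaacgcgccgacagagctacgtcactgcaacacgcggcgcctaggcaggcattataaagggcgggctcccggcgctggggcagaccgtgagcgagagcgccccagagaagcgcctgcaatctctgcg
Acta2: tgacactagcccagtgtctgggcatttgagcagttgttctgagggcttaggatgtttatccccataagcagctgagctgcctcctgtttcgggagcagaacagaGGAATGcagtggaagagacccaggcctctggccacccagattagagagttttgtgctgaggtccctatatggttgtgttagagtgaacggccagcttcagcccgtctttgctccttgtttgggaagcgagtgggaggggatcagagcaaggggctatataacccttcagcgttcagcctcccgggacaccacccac
Myl9: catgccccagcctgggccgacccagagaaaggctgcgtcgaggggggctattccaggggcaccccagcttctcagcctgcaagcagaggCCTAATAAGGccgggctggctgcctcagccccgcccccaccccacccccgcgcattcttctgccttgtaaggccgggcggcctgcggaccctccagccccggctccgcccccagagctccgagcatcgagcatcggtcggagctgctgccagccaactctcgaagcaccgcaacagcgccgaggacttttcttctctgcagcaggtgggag
Ifit1: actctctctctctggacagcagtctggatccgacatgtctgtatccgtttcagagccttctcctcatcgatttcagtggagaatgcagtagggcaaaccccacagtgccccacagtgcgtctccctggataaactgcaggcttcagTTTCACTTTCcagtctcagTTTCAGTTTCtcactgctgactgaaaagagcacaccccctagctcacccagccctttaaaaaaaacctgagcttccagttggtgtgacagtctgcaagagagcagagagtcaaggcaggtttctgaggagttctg

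The C/EBP letters, the site of factors such as those encoded by Cebpb and Cebpd, were found in 8 of 12 windows (66.7%) of the acute phase genes called higher, against 8.19% of the windows of all genes tested and 10.8% of all 32841 windows in the table. The TEAD letters were in 6 of 6 windows of YAP and TEAD targets called lower and in 7 of 14 windows of contractile genes called lower, against 12.2% of tested windows and 14.7% of all. The CArG box was in 3 of those 14 windows (Cnn2, Myl9 and Vcl), against 1.31% of tested windows and 1.63% of all. The AP-1 letters were in 4 of 9 windows of cytokine genes called higher (Il11, Il1rn, Il6 and Lif), against 5.25% and 7.81%. The interferon letters were in 11 of 17 windows of interferon-stimulated genes called lower and 3 of 6 of those called higher, against 2.99% and 3.44%. Lists of known targets hold such sites by the way the genes came to be known, and members that were not called held them too. Over all genes called, C/EBP letters lay in 9.59% of windows of genes called higher and 7.83% of those called lower, and CArG letters in 0.707% and 1.94%. The kappa-B letters, bound by NF-kB, were in 1 of 4 windows of NF-kB genes called higher and 9 of 18 of the tested windows of that list, against 10.8% of all tested windows, and in 10.6% of those of genes called higher and 10.2% of those called lower. The STAT letters TTCNNNGAA were in 1 of 11 windows of IL-6 family genes called higher, against 6.77% of tested windows. The letters TTCNNGAA, of the heat shock element, were in 2 of 5 windows of chaperones called higher and 2 of 7 of those called lower, against 6.8%. A match is a string of letters and not a site shown to be bound.

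For the lists below, the background is the share called over all genes tested, 18.6% higher and 19.2% lower. Of the 14 acute phase genes tested, 11 rose and none fell, and the median log2 fold change of the list was 2.69 (-0.05 over all genes). With members at the floor set to their bound, called the bounded median below and given where it differs, it was 2.57. The risers included Saa1, Saa3, Lcn2, Hp, the copper oxidase gene Cp and 4 genes of the Serpina3 family, whose sequences are alike and whose counts may be shared. Saa2, Ptx3 and Zc3h12a were not called. Summed over the list, levels were 13927 to 18352 CPM with shBrca2-CM and 667 and 581 CPM with control medium. Of 13 complement genes 6 were higher and 0 lower (median 0.53, or 1.10 at equal depth). Serping1, the C1 inhibitor, was at 249, 175 and 234 CPM with shBrca2-CM and 37.2 and 35.3 CPM with control medium (log2 fold change 2.60 ± 0.17 (SE), edgeR adjusted p = 4.62e-20), and Cfb, factor B of the alternative pathway, at 127, 146 and 144 CPM with shBrca2-CM and 26.6 and 45.1 CPM with control medium (log2 fold change 1.97 ± 0.18 (SE), edgeR adjusted p = 7.89e-14). C3, C4a, C4b and Cfp rose as well, C4a and C4b being near-identical copies.

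Cytokines and colony stimulating factors had 8 of 14 members higher and 2 lower (median 1.35). The risers were Il6, Il11, Lif, Clcf1, Csf3, Il1rn, Il33 and Tslp, of which the first 4 belong to the gp130 family. Il6 was at least 10.6-fold higher, at 10.1, 4.98 and 5.33 CPM with shBrca2-CM and 0.174 and 0.215 CPM with control medium, the latter being 1 count in each control library. Csf1, the macrophage growth factor, and Kitl, stem cell factor, fell, Kitl from low levels (2.89, 4.98 and 0 CPM against 10.4 and 8.17 CPM). The Kitl call was lost without shBrca2-CM replicate 3 (edgeR adjusted p = 0.104). At equal depth 5 members of the list were called higher and 1 lower. Among the calls lost there, those of Il6, Tslp and Kitl (log2 fold changes 5.45, 5.90 and -2.34) were lost on the mean count alone. Without shBrca2-CM replicate 3, 1 member was lower.

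The receptors and targets of the IL-6 family followed, with 10 of 15 higher and 2 lower (median 0.73). Among receptors Il6st, Il6ra, Lifr and Osmr rose, and among targets Socs3, Bcl3, Pim1, Cebpb and Cebpd. Cebpd, a C/EBP transcription factor induced in acute phase responses, was at 13, 17.4 and 15.1 CPM with shBrca2-CM and 2.95 and 1.72 CPM with control medium (log2 fold change 2.65), and Bcl3, an NF-kB cofactor, at 96.9, 93.3 and 121 CPM with shBrca2-CM and 20.9 and 21.3 CPM with control medium (log2 fold change 2.31 ± 0.19 (SE), edgeR adjusted p = 5.58e-16). Stat3, Jak1 and Tyk2 themselves were not called. Socs1, a suppressor induced by interferons, fell (8.68, 16.2 and 16 CPM against 45 and 58.7 CPM, log2 fold change -1.87).

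NF-kB subunits and feedback genes had 6 of 18 members higher and 2 lower (median 0.46). Rela, the p65 subunit, was at 443, 437 and 334 CPM with shBrca2-CM and 169 and 165 CPM with control medium (log2 fold change 1.27 ± 0.15 (SE), edgeR adjusted p = 2.25e-10). Nfkbiz, a nuclear cofactor for secondary response genes, was at 49.2, 44.8 and 51.5 CPM with shBrca2-CM and 16.7 and 11.4 CPM with control medium (log2 fold change 1.78), and Nfkbia, Relb, Tnip2 and Icam1 rose too. Nfkb1, Nfkb2, Rel and Tnfaip3 were not called. The deubiquitinase gene Cyld, a brake on the pathway, fell at low counts (2.89, 3.73 and 7.99 CPM against 14.3 and 13.5 CPM). Its log2 fold change of -1.38 was -2.04 without shBrca2-CM replicate 3, and without shBrca2-CM replicate 1 or 2 or control medium replicate 1, 1 member was called lower.

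Chemokines split, with 6 of 15 higher and 3 lower (median 0.49, bounded median 0). The risers were Cxcl1, Cxcl5, Cxcl16, Ccl5, Ccl7 and Ccl8. Ccl8, a monocyte attractant, was at 7.23, 17.4 and 10.7 CPM with shBrca2-CM and 1.56 and 0.86 CPM with control medium (log2 fold change 3.20). Cxcl5, a neutrophil attractant, was at 44.8, 48.5 and 49.7 CPM with shBrca2-CM and 10.4 and 2.36 CPM with control medium (log2 fold change 2.84), a value that was 4.31 without control medium replicate 1 and 2.20 without replicate 2. Cxcl10, Cxcl12 and Cx3cl1 fell, Cx3cl1, fractalkine, being at 75.2, 94.6 and 102 CPM with shBrca2-CM and 312 and 296 CPM with control medium (log2 fold change -1.73 ± 0.16 (SE), edgeR adjusted p = 3.3e-14). The fallers included the more abundant genes, and the summed chemokine level was 2687 to 3208 CPM with shBrca2-CM and 5275 and 5136 CPM with control medium.

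Prostaglandin genes had 7 of 11 members higher and 3 lower (median 0.68). The cyclooxygenase genes Ptgs1 and Ptgs2 rose along with Ptges, the inducible prostaglandin E synthase, which was at 63.7, 57.2 and 79 CPM with shBrca2-CM and 17.7 and 13.3 CPM with control medium (log2 fold change 2.11 ± 0.21 (SE), edgeR adjusted p = 2.56e-12). Ptgs2 was at 23.1, 31.1 and 17.8 CPM with shBrca2-CM and 7.99 and 2.36 CPM with control medium (log2 fold change 2.12), and without control medium replicate 1 the log2 fold change was 3.28. The receptors for prostaglandin E2 went the other way, Ptger1 (1.45, 3.73 and 7.1 CPM against 10.9 and 12.7 CPM, log2 fold change -1.36, or -2.12 without shBrca2-CM replicate 3) and Ptger4 being lower, while Ptgir, the prostacyclin receptor, was higher. In a fit of all 3 groups together 4 members were called higher.

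Of 37 interferon-stimulated genes 17 were lower and 7 higher (median -0.43). Ifit1, which binds foreign RNA caps, was at 49.2, 44.8 and 29.3 CPM with shBrca2-CM and 108 and 172 CPM with control medium (log2 fold change -1.81 ± 0.20 (SE), edgeR adjusted p = 3.06e-11), and Ifit2, Ifit3, Isg15, Mx1, Mx2, Irf1 and several GTPase genes (Gbp2, Gbp3, Gbp7, Igtp and Irgm1) fell with it. Higher were Stat2, Rsad2, Usp18, Samd9l, Ifitm1, Ifitm3 and Ifi44, the last at 68, 64.7 and 28.4 CPM with shBrca2-CM and 12.2 and 13.3 CPM with control medium (log2 fold change 2.02). This balance rested on 1 control library: without control medium replicate 2, 11 members were lower and 11 higher. Gbp7 was near the floor with shBrca2-CM (4.34, 4.98 and 2.66 CPM against 11.3 and 19.8 CPM).

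Antigen presentation genes of class I did not move one way, with 3 of 20 higher and 5 lower, near the background (median -0.18). B2m, the shared light chain, was nevertheless at 2083, 2359 and 1960.0 CPM with shBrca2-CM and 499.8 and 398 CPM with control medium (log2 fold change 2.25 ± 0.14 (SE), edgeR adjusted p = 2.3e-20). H2-T23, a non-classical heavy chain, moved the other way (24.6, 38.6 and 33.7 CPM against 162 and 213 CPM, log2 fold change -2.51), as did H2-M3 (21.7, 16.2 and 16.9 CPM against 36.3 and 40.2 CPM), Tap2, Psmb9 and Psmb10. The classical heavy chain genes H2-K1 and H2-D1 were not called.

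Of 10 immune checkpoint ligands and related genes, 3 rose and none fell (median -0.18, bounded median -0.09), though 2 were called lower without shBrca2-CM replicate 2 and 1 without shBrca2-CM replicate 1 or either control library. Pvr and Nectin2, ligands of TIGIT and CD226, were at 178, 134 and 135 CPM against 63.1 and 56.3 CPM (log2 fold change 1.31 ± 0.16 (SE), edgeR adjusted p = 1.55e-09) and 140.3, 146 and 168 CPM against 40.5 and 53.5 CPM (log2 fold change 1.70 ± 0.17 (SE), edgeR adjusted p = 8.34e-13) with shBrca2-CM and control medium, respectively. Nt5e, the adenosine-producing ectoenzyme CD73, was at 7.23, 8.71 and 9.76 CPM with shBrca2-CM and 3.13 and 2.15 CPM with control medium (log2 fold change 1.69). Cd274, which encodes PD-L1, was near the floor, at 4.34, 1.24 and 0.888 CPM with shBrca2-CM and 3.65 and 2.15 CPM with control medium. Its difference was not detectable at this depth (log2 fold change -0.61 ± 0.74 (SE), edgeR adjusted p = 0.544). Without shBrca2-CM replicate 1 the log2 fold change was -1.48, also not called (edgeR adjusted p = 0.254).

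**Figure D4:**
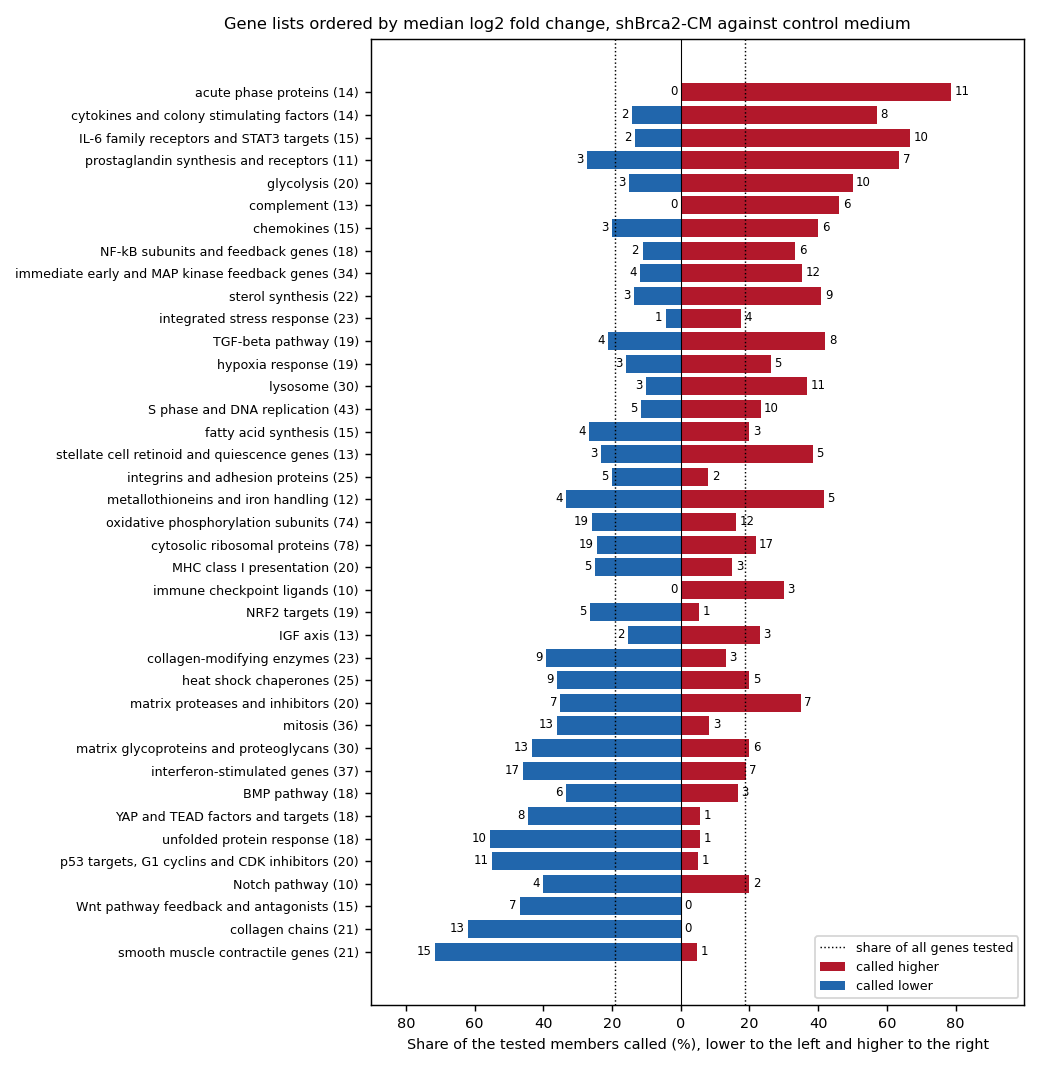
Percent of the tested members of each list called higher (red, to the right) or lower (blue, to the left) with shBrca2-CM, lists being ordered by median log2 fold change, the number tested in brackets and the number called at each bar. Dotted lines mark the 18.6% higher and 19.2% lower among all genes tested; acute phase proteins, with 11 of 14 higher, and contractile genes, with 15 of 21 lower, stand at the ends.

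Contractile genes were the list with the lowest median (-1.50, bounded median -1.38): 15 of 21 fell and 1 rose. Beside Tagln, the fallers were the actins Acta2 and Actg2, the calponins Cnn1, Cnn2 and Cnn3, the myosin light chain Myl9 and its kinase Mylk, the tropomyosins Tpm1 and Tpm4, and Cald1, Smtn, Vcl, Flna and Actn1. Acta2, the classical marker of the activated stellate cell, was at 4.34, 2.49 and 0.888 CPM with shBrca2-CM and 29.5 and 23 CPM with control medium. Des, desmin, an intermediate filament of stellate cells, rose from low levels (11.6, 12.4 and 7.1 CPM against 3.13 and 4.94 CPM, log2 fold change 1.32), a call lost at equal depth (edgeR adjusted p = 0.618).

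Targets of YAP and TEAD, factors that respond to stiffness and cell spreading, had 8 of 18 members lower and 1 higher (median -0.55). Ccn2, connective tissue growth factor, was at 27.5, 37.3 and 25.7 CPM with shBrca2-CM and 108 and 119 CPM with control medium (log2 fold change -1.92 ± 0.19 (SE), edgeR adjusted p = 2.34e-12). Ccn1, Ankrd1, Amotl2, Ajuba, Crim1, Ptpn14 and Tead1 also fell, and the genes for YAP and TAZ (Yap1 and Wwtr1) were not called. Ajuba was at 5.79, 14.9 and 8.88 CPM against 27.3 and 29 CPM (log2 fold change -1.50), and Amotl1 rose (76.7, 69.7 and 79 CPM against 35.6 and 36.5 CPM, log2 fold change 1.06). Without shBrca2-CM replicate 3 or control medium replicate 2, 2 members of the list were higher. Integrins and adhesion proteins were spread around 0, with 2 of 25 higher and 5 lower (median 0.02). Itgb3 was at 31.8, 37.3 and 39.9 CPM against 16.2 and 13.3 CPM and rose, while the collagen receptor Itga11 (7.23, 6.22 and 7.99 CPM against 22.2 and 20.2 CPM) and Itga8 (at least 2.48-fold lower) fell. Itgb1, Itgav and Itga5 were not called. DESeq2 called 3 members lower, and at equal depth 2 were lower, the call of Itga8 being lost on the mean count alone (log2 fold change -2.08 there).

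Collagen chains fell in 13 of 21 cases and rose in none (median -0.93, bounded median -0.73), though 1 was called higher without shBrca2-CM replicate 3 or control medium replicate 2 and with the replicate number as a block. They included the fibrillar chains Col1a1, Col1a2, Col3a1, Col5a1 and Col5a2 and the collagen VI chains Col6a1, Col6a2 and Col6a3. Col15a1 is given above, and Col12a1 was at least 1.92-fold lower (0, 1.24 and 2.66 CPM against 9.56 and 7.09 CPM), a call lost when either control library was left out only because its mean count then fell under 5. Its log2 fold change of -2.43 was -3.57 without shBrca2-CM replicate 3, and at equal depth it was -1.80 and not called on the mean count alone. Basement membrane chains Col4a1 and Col4a2 were not called. Enzymes that modify or cross-link collagen had 9 of 23 members lower and 3 higher (median -0.28). P4ha3, a prolyl hydroxylase subunit, was at 0, 4.98 and 0 CPM with shBrca2-CM and 18.6 and 14.6 CPM with control medium and Loxl4, a lysyl oxidase, at least 3.01-fold lower (2.89, 1.24 and 2.66 CPM against 12.2 and 14 CPM), the latter call lost at equal depth on the mean count alone (log2 fold change -2.01 there). P4ha3 was not called by DESeq2 (adjusted p = 0.184), and its log2 fold change of -3.40 was -8.68 without shBrca2-CM replicate 2, the only one with counts, -2.63 without shBrca2-CM replicate 3 and -2.60 with the replicate number as a block. Bmp1, the procollagen C-proteinase, rose (421, 401 and 553 CPM against 186 and 189 CPM, log2 fold change 1.30 ± 0.15 (SE), edgeR adjusted p = 1.09e-10), and without control medium replicate 1 the list had 1 member called higher.

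Matrix glycoproteins and proteoglycans had 13 of 30 members lower and 6 higher (median -0.42). Eln, elastin, had the largest fall, at 1.45, 4.98 and 4.44 CPM with shBrca2-CM and 78.2 and 72.7 CPM with control medium (log2 fold change -4.29 ± 0.31 (SE), edgeR adjusted p = 6.91e-18). Fn1, Fbn1, Sparc, Postn, Thbs1, Vcan and Cthrc1 were lower as well. Dcn, the small proteoglycan decorin, went the other way, at 1222, 909.7 and 1127 CPM with shBrca2-CM and 105 and 80 CPM with control medium (log2 fold change 3.56 ± 0.17 (SE), edgeR adjusted p = 5.7e-27). Spp1, osteopontin, named after its values were seen, was the gene of rank 3 with shBrca2-CM, at 9051, 8754 and 9529 CPM with shBrca2-CM and 2047 and 1589.8 CPM with control medium (log2 fold change 2.33 ± 0.14 (SE), edgeR adjusted p = 6.24e-22). Fbln1, Tnc, Lama4 and Lamb1 rose too, so that the matrix list held both directions.

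Matrix proteases and their inhibitors split evenly, with 7 of 20 higher and 7 lower (median -0.41, bounded median -0.18). Beside Mmp3 and Mmp13, Mmp2, Mmp11, Mmp19, Adamts4 and the inhibitor Timp1 rose. Mmp9, Mmp14, Timp3, Plaur, Plat and Serpine2 fell, as did Adamts1, which was at 18.8, 31.1 and 20.4 CPM with shBrca2-CM and 114 and 80.8 CPM with control medium (log2 fold change -2.06 ± 0.22 (SE), edgeR adjusted p = 6.42e-12).

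In the TGF-beta pathway 8 of 19 genes rose and 4 fell (median 0.23). Of the ligands, Tgfb2 was at least 4.5-fold lower (0, 3.73 and 2.66 CPM against 21.9 and 17.2 CPM), Tgfb3 was lower and Tgfb1 was not called. Of the receptors, Tgfbr1 was at 213, 172 and 244 CPM with shBrca2-CM and 69.3 and 61.5 CPM with control medium (log2 fold change 1.69 ± 0.16 (SE), edgeR adjusted p = 2.73e-13) and Tgfbr3, betaglycan, at 103, 109.5 and 117 CPM with shBrca2-CM and 31.1 and 31.4 CPM with control medium (log2 fold change 1.82 ± 0.18 (SE), edgeR adjusted p = 3.86e-13), whereas Tgfbr2 fell. The latent TGF-beta binding proteins Ltbp1, Ltbp2, Ltbp3 and Ltbp4 rose, as did the signal transducer Smad4 and the target gene Pmepa1, and the inhibitory Smad7, also a target, fell.

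BMP pathway genes had 6 of 18 lower and 3 higher (median -0.49, bounded median -0.29). The targets Id1, Id2 and Id3, inhibitors of basic helix-loop-helix factors, all fell. Id3 was at 165, 172 and 144 CPM with shBrca2-CM and 1246 and 923 CPM with control medium (log2 fold change -2.76 ± 0.15 (SE), edgeR adjusted p = 8.31e-24), and Id2 at 24.6, 16.2 and 18.6 CPM with shBrca2-CM and 176 and 131 CPM with control medium (log2 fold change -2.97 ± 0.21 (SE), edgeR adjusted p = 2.13e-18). The ligand Bmp4 and the inhibitory Smad6 fell with them. Grem1, a BMP antagonist, and Inhba, the activin A subunit, rose, Inhba being at 13, 16.2 and 19.5 CPM with shBrca2-CM and 2.95 and 1.29 CPM with control medium (log2 fold change 2.90). Without control medium replicate 1, Inhba had a log2 fold change of 3.63 and 6 BMP genes were higher, and 5 were higher without shBrca2-CM replicate 3.

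Wnt feedback genes and antagonists fell in 7 of 15 cases and rose in none (median -0.88, bounded median -0.55), though 1 was called higher at equal depth and without shBrca2-CM replicate 1 or either control library. The feedback targets Axin2 and Apcdd1 were lower, as were the antagonists Sfrp2, Sfrp4, Dkk2 and Dkk3 and the ligand Wnt5a. Dkk2 was at 2.89, 13.7 and 7.99 CPM with shBrca2-CM and 119.6 and 75.2 CPM with control medium (log2 fold change -3.53 ± 0.28 (SE), edgeR adjusted p = 2.12e-16). In the Notch pathway 4 of 10 fell and 2 rose (median -0.86, bounded median 0.00). The target Hes1 was at 15.9, 19.9 and 16.9 CPM with shBrca2-CM and 66.2 and 60.2 CPM with control medium (log2 fold change -1.84 ± 0.23 (SE), edgeR adjusted p = 1.1e-09), and Notch1, Notch3 and Lfng (5.79, 3.73 and 1.78 CPM against 10.9 and 11 CPM) fell, while Notch2 rose (23.1, 12.4 and 17.8 CPM against 6.78 and 3.44 CPM, log2 fold change 1.74), with 2.33 in place of that value without control medium replicate 1.

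The IGF axis held 3 genes higher and 2 lower of 13, near the background (median -0.22, bounded median -0.18). H19, an imprinted non-coding RNA, was at 435, 525 and 487 CPM with shBrca2-CM and 185 and 267 CPM with control medium (log2 fold change 1.10 ± 0.15 (SE), edgeR adjusted p = 1.38e-08), and its neighbour Igf2 fell. Igfbp2 fell (4.34, 8.71 and 2.66 CPM against 19.5 and 29 CPM, log2 fold change -2.26), and Igf2bp2, an RNA-binding protein, rose (205, 217 and 216 CPM against 87.8 and 95.7 CPM, log2 fold change 1.22 ± 0.15 (SE), edgeR adjusted p = 1.14e-09).

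Immediate early and MAP kinase feedback genes had 12 of 34 members higher and 4 lower (median 0.29, bounded median 0.24). The EGF receptor ligands Ereg, Areg and Hbegf all rose, Areg being at 11.6, 16.2 and 11.5 CPM with shBrca2-CM and 2.78 and 3.44 CPM with control medium (log2 fold change 2.06, or 1.29 at equal depth). Jun, Junb, Egr1, Nr4a1, Dusp6, Etv4 and Etv5 rose, and Ier3 was at 1636, 1385 and 1804 CPM with shBrca2-CM and 328 and 284 CPM with control medium (log2 fold change 2.40 ± 0.15 (SE), edgeR adjusted p = 3.58e-21). Fos and Fosl1 were not called, and Myc, Dusp1, Spry1 and Klf2 (8.68, 3.73 and 6.21 CPM against 22.1 and 29 CPM) fell.

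Retinoid and quiescence genes, which mark the resting stellate cell and its vitamin A store, had 5 of 13 higher and 3 lower (median 0.06). Dhrs3, a retinal reductase that retinoic acid induces, was at 382, 345 and 383 CPM with shBrca2-CM and 35.8 and 52 CPM with control medium (log2 fold change 3.08 ± 0.17 (SE), edgeR adjusted p = 1.17e-23). Rarres2, the chemoattractant chemerin, was at 119, 153 and 204 CPM with shBrca2-CM and 25.9 and 26.9 CPM with control medium (log2 fold change 2.61 ± 0.18 (SE), edgeR adjusted p = 1.25e-18). The lipid droplet gene Plin2, Rarb and Rbp4 rose, and Crabp2, Ngfr and Rarres1 (2.89, 4.98 and 2.66 CPM against 38.6 and 25.8 CPM) fell. Without control medium replicate 2, 1 member was called lower, and at equal depth 3 were higher.

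Glycolysis genes rose in 10 of 20 cases and fell in 3 (median 0.57). Slc16a3, the lactate exporter MCT4, was at 98.4, 126 and 114 CPM with shBrca2-CM and 11.3 and 36.8 CPM with control medium (log2 fold change 2.27 ± 0.23 (SE), edgeR adjusted p = 2.62e-12), a log2 fold change that was 1.62 without control medium replicate 1 and 3.32 without replicate 2. Pgk1 was at 47.7, 47.3 and 33.7 CPM with shBrca2-CM and 18.8 and 16.8 CPM with control medium (log2 fold change 1.24), and the glucose transporter gene Slc2a1, Pfkl, Tpi1 and Pkm rose. Gapdh, which has many processed copies, is uncertain: it was at 15.9, 240.2 and 24.9 CPM with shBrca2-CM and 436 and 528 CPM with control medium, 1 shBrca2-CM library standing apart (log2 fold change -2.39, or -4.49 without shBrca2-CM replicate 2), and DESeq2 did not call it (adjusted p = 0.202). Eno1 and Ldha, the lactate dehydrogenase A chain, were the other fallers. Without control medium replicate 2, 1 glycolysis gene was called lower. Hypoxia genes had 5 of 19 higher and 3 lower, near the background (median 0.17, bounded median 0.16). Bnip3l (42, 42.3 and 47.9 CPM against 11.1 and 12.7 CPM) and Kdm3a (47.7, 56 and 42.6 CPM against 21.6 and 15 CPM) were among the risers, with Vegfa and Hif1a. Egln3 fell, a call lost without control medium replicate 2 (edgeR adjusted p = 0.264).

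Sterol synthesis genes had 9 of 22 higher and 3 lower (median 0.25), or 1 lower in a fit of all 3 groups together. Lss, lanosterol synthase, was at 20.3, 13.7 and 27.5 CPM against 6.08 and 6.02 CPM (log2 fold change 1.80). Hsd17b7 fell (15.9, 14.9 and 7.1 CPM against 24.9 and 22.6 CPM), a call lost without shBrca2-CM replicate 3 (edgeR adjusted p = 0.158) and in the fit of all 3 groups (0.161). In fatty acid synthesis 3 of 15 rose and 4 fell (5 and 2 without control medium replicate 2, 5 rose without shBrca2-CM replicate 2, and 5 and 1 at equal depth), Elovl6 being at 36.2, 36.1 and 57.7 CPM against 18.2 and 11.2 CPM (log2 fold change 1.58) and Acss2 at 2.89, 8.71 and 6.21 CPM against 14.1 and 12.7 CPM, a call lost in DESeq2's Wald test. The fall of Fads3 (21.7, 12.4 and 21.3 CPM against 27.1 and 32.9 CPM) was not called without shBrca2-CM replicate 2 (edgeR adjusted p = 0.191) or control medium replicate 2 (0.139), nor at equal depth (0.675). Fasn, Acly and Hmgcs1 were not called.

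Respiratory chain subunits were spread around 0, with 12 of 74 higher and 19 lower (median 0.01). So were cytosolic ribosomal proteins, with 17 of 78 higher and 19 lower (median -0.11, bounded median 0.00). Both lists were not far from the background. Sdhd (46.3, 47.3 and 28.4 CPM against 144 and 153 CPM) and Ndufb6 (171, 224 and 196 CPM against 447 and 439 CPM) fell. Single ribosomal protein genes nevertheless moved far in both directions, Rpl39 by 3.61 (148, 82.1 and 72.8 CPM against 9.56 and 6.23 CPM), Rps13 to a log2 fold change of -1.36 (376, 504 and 379 CPM against 999.6 and 1159 CPM) and Rpl7a to -2.37 (60.8, 297 and 293 CPM against 1136 and 1159.9 CPM). Both families have many processed copies in the genome, so that single members are uncertain.

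Heat shock chaperones had 9 of 25 members lower and 5 higher (median -0.41). Cryab, a small heat shock protein abundant in muscle, was at 59.3, 70.9 and 30.2 CPM with shBrca2-CM and 403 and 357 CPM with control medium (log2 fold change -2.88 ± 0.18 (SE), edgeR adjusted p = 1.52e-20), and Hspa1b, the inducible Hsp70, at 57.9, 48.5 and 63.9 CPM against 194 and 177 CPM (log2 fold change -1.69). Hspa1a, nearly identical to Hspa1b, and the Hsp90 genes Hsp90aa1 and Hsp90ab1 fell too. The study follows the HSF1 protein, which drives these genes, by nuclear staining, DNA binding and an inhibitor. RNA levels do not measure its activity. Hsf1 RNA was at 211, 192 and 184 CPM with shBrca2-CM and 113 and 162 CPM with control medium. Its log2 fold change of 0.51 lay just past the limit of 0.5, with an edgeR adjusted p of 0.00676. It was 0.27 and not called without control medium replicate 1, and 0.45 without shBrca2-CM replicate 1. Hsph1 rose (149, 103 and 155 CPM against 69.2 and 82.8 CPM, log2 fold change 0.85). Without control medium replicate 1, 2 members were called higher, and at equal depth 3.

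Of 18 genes of the unfolded protein response, many of them chaperones of the endoplasmic reticulum, 10 were lower and 1 higher (median -0.58). Hspa5, Hsp90b1, Calr, Pdia3 and Pdia6 fell. Dnajb9, an IRE1 target, was at 2.89, 9.96 and 13.3 CPM against 28.3 and 29.4 CPM (log2 fold change -1.61, or -2.48 at equal depth) and Pdia4 at 15.9, 16.2 and 7.1 CPM against 26.9 and 25.6 CPM (log2 fold change -1.09), while Hyou1 rose from low levels (10.1, 4.98 and 11.5 CPM against 2.78 and 1.72 CPM). At equal depth the calls of Hyou1 (edgeR adjusted p = 0.156) and Pdia4 (0.216) were lost, and 9 members were lower and 0 higher, whereas 2 were higher without control medium replicate 2. The integrated stress response had 4 of 23 higher and 1 lower (0 lower without control medium replicate 2, and 2 higher at equal depth), and its factors Atf4 and Ddit3 were not called. Shmt2 was at 385, 428 and 583 CPM against 217 and 289.8 CPM (log2 fold change 0.89) and Aldh18a1 at 36.2, 33.6 and 35.5 CPM against 16 and 27.5 CPM, the latter not called without control medium replicate 1 (edgeR adjusted p = 0.308) or at equal depth (0.522).

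Of 19 NRF2 targets 5 fell and 1 rose (median -0.21, bounded median -0.17), or 3 rose without shBrca2-CM replicate 2 and 2 at equal depth. Gclc and Gclm, the enzyme that limits glutathione synthesis, fell with Txn1, Gstm1 (308, 291 and 307 CPM against 611 and 523 CPM) and Gsta4 (18.8, 18.7 and 10.7 CPM against 26.6 and 33.3 CPM), and Prdx1 rose (124, 116 and 87 CPM against 13.6 and 14 CPM, log2 fold change 2.96). The call of Gsta4 was lost at equal depth (edgeR adjusted p = 0.124). Metal-handling genes had 5 of 12 higher and 4 lower, or 2 lower without control medium replicate 1 (median 0.02, or 0.73 at equal depth, bounded median 0.36). Mt2, a metallothionein, was at 7399, 6635 and 9110.1 CPM with shBrca2-CM and 1718 and 1549.9 CPM with control medium (log2 fold change 2.24 ± 0.14 (SE), edgeR adjusted p = 8.18e-21). Mt1, Fth1 and the metal importers Slc39a14 (95.5, 68.4 and 83.4 CPM against 28.3 and 25.2 CPM) and Slc11a2 rose, whereas the transferrin receptor gene Tfrc and the iron regulators Aco1 and Ireb2 fell. Ireb2 (at least 1.32-fold lower) was at or under 3 counts in all shBrca2-CM libraries and its call was lost when either control library was left out, its mean count then falling under 5, at equal depth and in DESeq2's Wald test (adjusted p = 0.108). Its log2 fold change of -2.28 was -3.29 without shBrca2-CM replicate 2.

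Lysosome genes had 11 of 30 higher and 3 lower (median 0.16). Ctsl was at 20.3, 9.96 and 20.4 CPM with shBrca2-CM and 1.56 and 1.93 CPM with control medium (log2 fold change 3.27 ± 0.43 (SE), edgeR adjusted p = 5.66e-09, the log2 fold change being 4.07 at equal depth) and Ctsb at 55, 61 and 70.1 CPM with shBrca2-CM and 14.3 and 11.6 CPM with control medium (log2 fold change 2.27 ± 0.22 (SE), edgeR adjusted p = 4.91e-13), both cathepsin proteases. Laptm4a (369, 428 and 352 CPM against 996 and 847 CPM), Lamp1 and Lamp2, membrane proteins of the organelle, fell. Without control medium replicate 1, 7 members were called higher.

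S phase genes had 10 of 43 higher and 5 lower (median 0.15), near the background. Chaf1a, a chromatin assembly factor, was at 233, 192 and 221 CPM against 94.7 and 83.6 CPM (log2 fold change 1.27 ± 0.15 (SE), edgeR adjusted p = 5.36e-10) and Rrm1, a ribonucleotide reductase subunit, fell, at 139, 127 and 117 CPM against 256 and 243 CPM (log2 fold change -0.97). Mitosis genes had 13 of 36 lower and 3 higher (median -0.41, bounded median -0.33). Cdc20, an activator of the anaphase complex, was at 101, 74.7 and 79.9 CPM with shBrca2-CM and 185 and 213 CPM with control medium (log2 fold change -1.23 ± 0.16 (SE), edgeR adjusted p = 4.99e-09), and Hmmr at 17.4, 24.9 and 12.4 CPM against 45.9 and 38.5 CPM (log2 fold change -1.25), while Tpx2 rose (36.2, 26.1 and 29.3 CPM against 13.2 and 10.3 CPM). Mki67 and Cdk1 were not called. Of p53 targets, G1 cyclins and CDK inhibitors 11 of 20 fell and 1 rose (median -0.62, bounded median -0.56), but 7 fell at equal depth and 2 rose without shBrca2-CM replicate 1. Cdkn2b, an inhibitor that TGF-beta induces, was at 46.3, 59.7 and 39.9 CPM with shBrca2-CM and 152 and 159 CPM with control medium (log2 fold change -1.69 ± 0.18 (SE), edgeR adjusted p = 5.07e-12), and Ccnd1, Cdk4 and Ccng1 fell. Mdm2, which degrades p53, rose (117, 164 and 164 CPM against 73.9 and 75.5 CPM, log2 fold change 1.01 ± 0.16 (SE), edgeR adjusted p = 5.64e-07). Trp53inp1 (4.34, 0 and 0 CPM against 7.82 and 6.02 CPM) was called lower, but not at equal depth or when either control library was left out, because its mean count then fell under 5. Its log2 fold change of -2.55 was -7.44 without shBrca2-CM replicate 1, the only one with counts, and -1.77 without shBrca2-CM replicate 3.

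Whether a change differed between shBrca2-CM and shControl-CM was tested directly, since both comparisons with control medium share its 2 libraries. In that test Brca2 silencing cannot be told apart from other differences between the organoid cultures. Of 11035 genes, 345 (3.13%) were called in that test, among them 27 of the genes given above with their values and further genes named without values. The count depended on single libraries, being 976 without shControl-CM replicate 1 and 128 without shBrca2-CM replicate 2. Acute phase levels were higher with shControl-CM in the leading genes, Lcn2 being at 3420.1, 3673 and 3472 CPM and Hp at 17087, 18899 and 18445 CPM there. Clu, at 121, 168 and 197 CPM with shControl-CM, and H19, at 15.4, 28 and 27.2 CPM, were higher with shBrca2-CM. H19 thus lay above control medium with shBrca2-CM and below it with shControl-CM. Ccn2, at 3.84, 7.73 and 7.47 CPM, and Ifit1, at 20.5, 7.73 and 5.43 CPM, were lower with shControl-CM than with shBrca2-CM, both media being below control medium. Of the interferon list, 14 members were called higher with shBrca2-CM than with shControl-CM and 0 lower, and of the acute phase list 0 were called higher and 7 lower. Of the complement list 3 were called higher and 2 lower. For Tagln, Mmp13 and B2m a difference between the conditioned media was not called, which does not show that the media act alike.

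**Figure D5:**
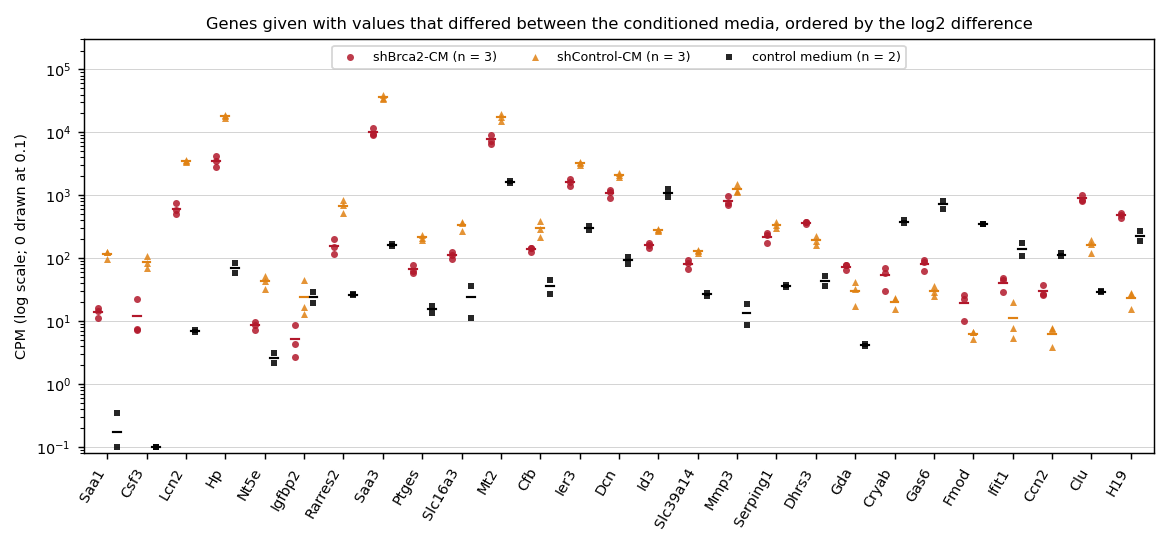
CPM (log scale, with 0 drawn at 0.1) of the 27 genes given with values that were called between the conditioned media, with 1 point per library and a bar at the group mean, red circles for shBrca2-CM, orange triangles for shControl-CM and black squares for control medium. Genes are ordered from Saa1, lowest with shBrca2-CM relative to shControl-CM, to H19, highest, and of the 18 lower with shBrca2-CM all but Id3 and Igfbp2 have a shBrca2-CM mean between those of the other groups.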

How the data were processed

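Per the labels, PSC libraries were made by a MARS-seq protocol, which counts mRNA 3′ ends. The submitters' processing notes name bcl2fastq, cutadapt, STAR 2.4.2a, HTSeq and DESeq2 and the build mm10. The authors deposited raw counts per gene, not normalized, without pooling replicates; the treatment of molecular identifiers and the rule that selected the genes are not given in the sources used here. Of the count columns, 1 could be tied to no sample and was left unused, and no row lacked a gene name. Counts were analysed in R 4.3.3 with edgeR 4.0.16 (TMM, quasi-likelihood test, Benjamini-Hochberg adjustment) on the 5 libraries alone, for genes with at least 10 counts. Standard errors were taken from the fold change and its F statistic. CPM were TMM-normalized over all 8 libraries. A group with 3 or fewer counts in every library was at the floor, and bounds set the mean CPM of the other group against its highest floor.

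The members and the gene lists were chosen with earlier results of these data known. Genes with values were the 10 largest called changes in each direction among genes over 3 counts in every library, the 5 most abundant called genes with the other group at the floor, up to 3 called members of each list without overlap, and genes the study names; Spp1, Fth1 and the promoters shown were picked with their values in view. Some genes that the rule names are not reported here. The fit was repeated with DESeq2 1.42.0, other scalings, filters and thresholds, a replicate block, binomial thinning to equal depth, and without each library in turn. The replicate numbers carry no stated meaning, and deviations of same-numbered libraries from their group means correlated at 0.03 and -0.00 over 7975 genes, so they were not taken as pairs. Fits were tested on simulated data.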

Additional observations from a re-analysis of the deposited data

Results flagged for a closer look

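No group held 4 samples, so no library could be tested as an outlier. For 27 of the genes given above with their values, the change from control medium differed between the conditioned media by the edgeR test of the difference itself, an adjusted p under 0.1 in each. Values are log2 fold changes of shBrca2-CM against shControl-CM, with 3 libraries a group. Lower with shBrca2-CM were the secreted defence genes Saa1 (-3.02), Csf3 (-2.68, or -3.52 without shBrca2-CM replicate 3), Lcn2 (-2.50), Hp (-2.36), Saa3 (-1.80), Cfb (-1.09) and Serping1 (-0.60), although 3 other members of the complement list were called higher. Lower too were the secreted or matrix genes Igfbp2 (-2.20), Rarres2 (-2.06), Dcn (-0.93) and Mmp3 (-0.62), the enzyme, transport and metal genes Nt5e (-2.26), Ptges (-1.65), Slc16a3 (-1.54), Mt2 (-1.15) and Slc39a14 (-0.63), and Ier3 (-0.98) and Id3 (-0.80). Higher with shBrca2-CM were H19 (4.41), Clu (2.49), Ccn2 (2.28), Ifit1 (1.83), Fmod (1.69), Gas6 (1.46), Cryab (1.39), Gda (1.28) and Dhrs3 (0.95). In Fmod, Gas6, Cryab, Ccn2 and Ifit1 both media lay below control medium, so that a higher value with shBrca2-CM is a smaller fall. In Id3 the fall was larger with shBrca2-CM, and Igfbp2 fell with shBrca2-CM whereas shControl-CM against control medium gave -0.04 on the same scale. The calls of Mmp3, Gda, Fmod, Serping1, Ifit1, Igfbp2, Cryab and Slc39a14 were lost in at least 1 of the fits that left out a library.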

How the results depend on the processing

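The count of 4555 genes called between shBrca2-CM and control medium was 3531 to 4566 in the planned fits other than the stricter threshold and the thinned libraries. With an adjusted p under 0.05 and a log2 fold change over 1 it was 2185, of which 1071 were higher and 1114 lower. Thinning to the smallest total, where fewer genes reach the mean count a call requires, gave 3326 calls, 3068 of them among the 4555, and none in the opposite direction. DESeq2's likelihood ratio test called 3661 and its Wald test 3531. Over the 5 fits that left out a library the count was 3903 to 4510. No shared call changed direction under any alternative. Scaling by total counts or DESeq2 size factors left the sign of every list's median as given. Thinning turned the NRF2 median to 0.02 and moved that of metal-handling genes from 0.02 to 0.73.

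With the replicate block 3850 genes were called against control medium, 1880 higher and 1970 lower, and 311 between the conditioned media. Same-numbered libraries share only a number. The block lost the calls of Kitl and Hsd17b7 against control medium and of Mmp3 and Slc39a14 between the conditioned media, and turned no direction.

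Between the conditioned media the count of 345 genes ranged from 128 to 976 over the 6 fits that left out a library: 175, 128 and 160 without shBrca2-CM replicate 1, 2 or 3, and 976, 169 and 445 without shControl-CM replicate 1, 2 or 3. The cause was not tested. Of 2196 alternative values of described genes, 2114 kept direction and side of the threshold, 82 kept direction only and 0 reversed, and of 1290 counts of list members, 1221 stayed within 1.5 times. The shallow shBrca2-CM libraries limit what can be said of genes under about 10 CPM.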
